A study of Xenopus laevis with 35 samples.

Results

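RNA of hmgn3.L and mbd3.S, genes of chromatin proteins, was measured in brains of Xenopus laevis tadpoles exposed to chemicals that block the thyroid axis. These are 2 of the 243 named genes on the array. Their probes were found by annotation, and the genes were chosen with earlier results of these data known. Each had 1 probe of 449, printed as 2 neighbouring spots that were averaged. The probe for hmgn3.L carries the array's older symbol Trip7 and was matched to the current symbol through its Entrez ID, and that for mbd3.S carries MBD3. The S homeolog of hmgn3, the copy on the other subgenome of this allotetraploid frog, had no probe with that name.

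The labels used here give no strain, sex or clutch. All tadpoles were at Nieuwkoop and Faber stage 54, an early point of metamorphosis, when exposure began. Control tadpoles received no chemical. The other groups were held continuously in 1 of 3 chemicals, at 100 mg/L for MMI, 20 mg/L for PTU and 4 mg/L for PER. As background, MMI is methimazole and PTU is propylthiouracil, thionamides that inhibit thyroid peroxidase, and PER is perchlorate, which blocks iodide uptake by the thyroid. Brains were taken after 24, 48 or 96 h, and each array stands for a pool of RNA from several tadpoles. There were 35 arrays, 3 for each treatment and time except PER at 24 h with 2. Tadpoles of a treatment and time came from a pair of tanks, so the spread between arrays is that between RNA pools and may be partly technical. Each chemical was given at 1 concentration, and tank and treatment cannot be told apart.

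HMGN3 belongs to the high mobility group nucleosome-binding proteins, which bind nucleosomes and are known to make chromatin less compact. The human protein was found as a partner of the thyroid hormone receptor, which is the origin of the name Trip7, and in Xenopus laevis the gene is known to respond to thyroid hormone during metamorphosis. MBD3 has a methyl-CpG-binding domain and is a subunit of the Mi-2/NuRD complex, which joins nucleosome remodelling to histone deacetylation. The Xenopus protein is known to bind methylated DNA, unlike the mammalian one. Thyroid hormone receptors without hormone recruit histone deacetylase complexes to their target genes in tadpoles.

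Values are scaled intensities, the deposited linear intensities divided by each array's relative brightness over the 18 probes that exceeded background on all arrays. The background SD of an array was the root mean square of its negative values, and above background means higher than 2 such SDs. The median background SD was 1022 units for controls and 647, 599 and 326 units for MMI, PTU and PER arrays. Of 7 brain markers, 4 (gap43.S, mbp.S, npy.S and msi1.S) were above background on at least 18 arrays, whereas none of 5 markers of blood (hbd.S), immune cells (il1b.S), muscle (myf5.L), gut (fabp2.L) and retina (crx.L) was. A shift in cell makeup and a change in RNA per cell cannot be told apart in such tissue samples. A pair of arrays stood out by likeness. PER 24 h replicate 1 and PER 48 h replicate 3 correlated at 0.9999 over 889 spots, against at most 0.963 for any other pair, and are treated below as possible copies of 1 hybridisation. Arrays of a group correlated with each other less in controls (mean r of an array 0.407 to 0.784) than with MMI (0.764 to 0.900), PTU (0.772 to 0.883) or PER (0.831 to 0.950). The part of this looser agreement and higher background in the comparisons with control was not tested. The lowest correlation was that of control 96 h replicate 1, and the other arrays of its group reached 0.552 and 0.468. Main results that move with it or with the repeated array are also given without them. Leaving out the repeated array means leaving out both copies.

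The probe for hmgn3.L was bright throughout. It was above background on 35 of 35 arrays, at 25.1 to 235 background SDs, and its brighter spot exceeded the dimmer by a median of 1.06 times and at most 1.45 times. It is also 1 of the 18 probes used for scaling. In controls hmgn3.L measured 34111, 37479 and 46243 at 24 h. At 48 h the control values were 26132, 41691 and 42639. At 96 h they were 35117, 41832 and 38472. The control values thus overlapped between all times.

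With PTU, hmgn3.L was higher than in controls on most arrays. At 24 h the values were 41706, 41124 and 66406, and they overlapped the controls. At 48 h they were 56155, 93127 and 57703, all above the controls of that time. At 96 h they were 74739, 73909 and 56536, without overlap after scaling. As deposited, PTU 96 h replicate 3 was at 47421.5, below control 96 h replicate 3 at 47846.5, so the groups of that time overlapped. Upward separation of scaled values was seen for 6.79% of all probes at 48 h and for 7.73% at 96 h. On the scaled values, 7 of the 9 PTU arrays lay above the highest of all 9 control arrays.

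With PER, hmgn3.L lay wholly above the controls of the same time at 24 and 48 h. With PTU it did so at 48 h and, after scaling only, at 96 h. The values at 24 h were 72695 and 69975, both above the controls. At 48 h they were 51071, 60661 and 72694, all above the controls. At 96 h they were 48440, 59210 and 33280, and the lowest of these was under every control of that time. Groups did not overlap upward for 9.95% of probes at 24 h and 11.9% at 48 h. Of the 8 PER arrays, 7 lay above the highest of all control arrays, and these 7 include both copies of the repeated array.

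MMI did not give such high values of hmgn3.L on most arrays. At 24 h the values were 22439, 22358 and 32091, all below the controls, a downward separation shared by 11.3% of probes. At 48 h they were 28994, 22636 and 38602, of which 1 was below the control range and the others within it. At 96 h they were 32667, 38181 and 57431, and the last was the only MMI array above the highest control. That array had a deposited intensity of 28149 and the lowest scaling factor, 0.490. It lay above the highest control only after scaling, and hmgn3.L ranked 2 of 432 probes by intensity on it.

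**Figure D1:**
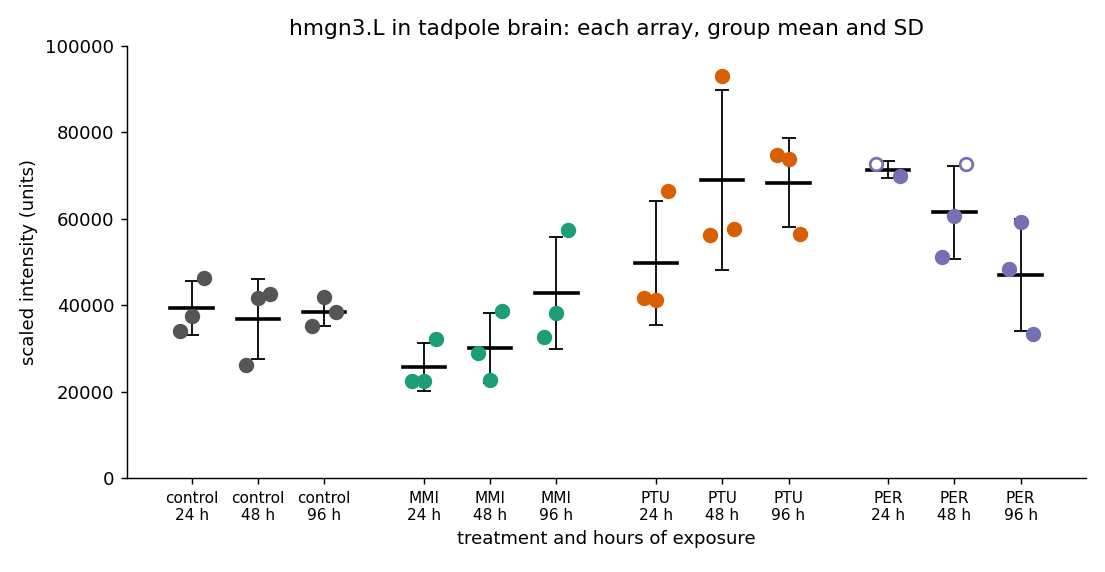
Scaled intensity of hmgn3.L (y axis, linear units) on each array, by treatment and hours of exposure (x axis). Points are arrays, horizontal bars are group means, whiskers are SDs, and open circles mark the repeated PER array. PTU at 48 and 96 h and PER at 24 and 48 h lie wholly above the controls of the same time, and MMI at 24 h lies wholly below.

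Averaged over all arrays of a treatment, hmgn3.L stood at 38191 ± 5940 (SD, n = 9) in controls and 32822 ± 11203 (SD, n = 9) with MMI. It stood at 62378 ± 16663 (SD, n = 9) with PTU and 58503 ± 13796 (SD, n = 8) with PER. The PER mean was 56476 ± 13553 (SD, n = 7) with the repeated array counted once and 53773 ± 12611 (SD, n = 6) without either copy. The PTU and PER means remained above every control array.

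These differences did not pass limma's moderated test after Benjamini-Hochberg adjustment over all probes. For PTU against control over the 3 times, hmgn3.L was 1.60-fold higher (log2 change 0.68, SE 0.26, 95% interval 0.15 to 1.21, adjusted p = 0.194). After scaling, 9 of 9 arrays lay above the control mean of their time. As deposited, PTU 24 h replicates 1 and 2, at 31771 and 32767.5, lay below the control mean of 24 h, at 35991.8. For PER hmgn3.L was 1.54-fold higher (log2 change 0.63, SE 0.27, interval 0.07 to 1.18, adjusted p = 0.307), in 7 of 8 arrays. With MMI the log2 change was -0.27 (SE 0.26, interval -0.80 to 0.26, adjusted p = 0.695), with 7 of 9 arrays below. The background of calls in these fits was 4.34% of probes for PTU, 1.59% for PER and 1.13% for MMI.

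A second test gave a different call for PER. Exact two-sided permutation of arrays within times, on the linear scale and for every probe, gave for hmgn3.L a difference of 21738 units with PER (p = 0.0015, adjusted p = 0.0473) and of 24188 units with PTU (p = 0.001, adjusted p = 0.0548). For MMI the difference was -5369 units (exact permutation p = 0.209, adjusted p = 0.787). This test called 3.17% of probes for PER, 1.6% for PTU and 0% for MMI. Leaving out both copies of the repeated array leaves 6 PER arrays, with no replicate at 24 h. The difference was then 19415 units and the limma change 0.58. The PER call was lost in that setting. It was also lost on leaving out any single one of the 9 control arrays or of 7 of the 8 PER arrays, all but PER 96 h replicate 3, which leaves fewer arrangements, with adjusted p up to 0.0984 in that test. The PTU result passed in it with any of 4 arrays left out (PTU 96 h replicate 3, PTU 24 h replicate 1, PTU 24 h replicate 2 and control 24 h replicate 3), with adjusted p from 0.0362.

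The limma result turned on the variance prior. The spread of hmgn3.L within groups was 0.33 on the log2 scale, and moderation towards the array-wide prior SD of 1.25 raised it to 0.55. With a prior that follows the mean intensity, an alternative chosen after seeing the data, the SE fell to 0.15 for PTU and 0.16 for PER and the adjusted p became 0.00363 and 0.0134. When only bright probes were tested, the adjusted p was 0.00473 for PTU and 0.0142 for PER. Both settings counted both copies of the repeated array for PER, and neither was run without them. Quantile normalisation moved the other way and left a PTU change of 0.09 (adjusted p = 0.903) and a PER change of 0.36. By intensity the probe ranked 1 to 10 on every array, with a median rank of 2. Quantile normalisation gives equal ranks nearly equal values on all arrays, so a probe near the top has little room to rise. The part of this in the PTU change was not tested. At 48 and 96 h the PTU change was at least 0.29 and 0.38 under every setting that left out no single array. The PTU change at 24 h under quantile normalisation was a fall, at -0.40. At 24 h the probe ranked 9, 7 and 2 with PTU and 4, 3 and 2 in controls. The cause of that fall was not tested.

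**Figure D2:**
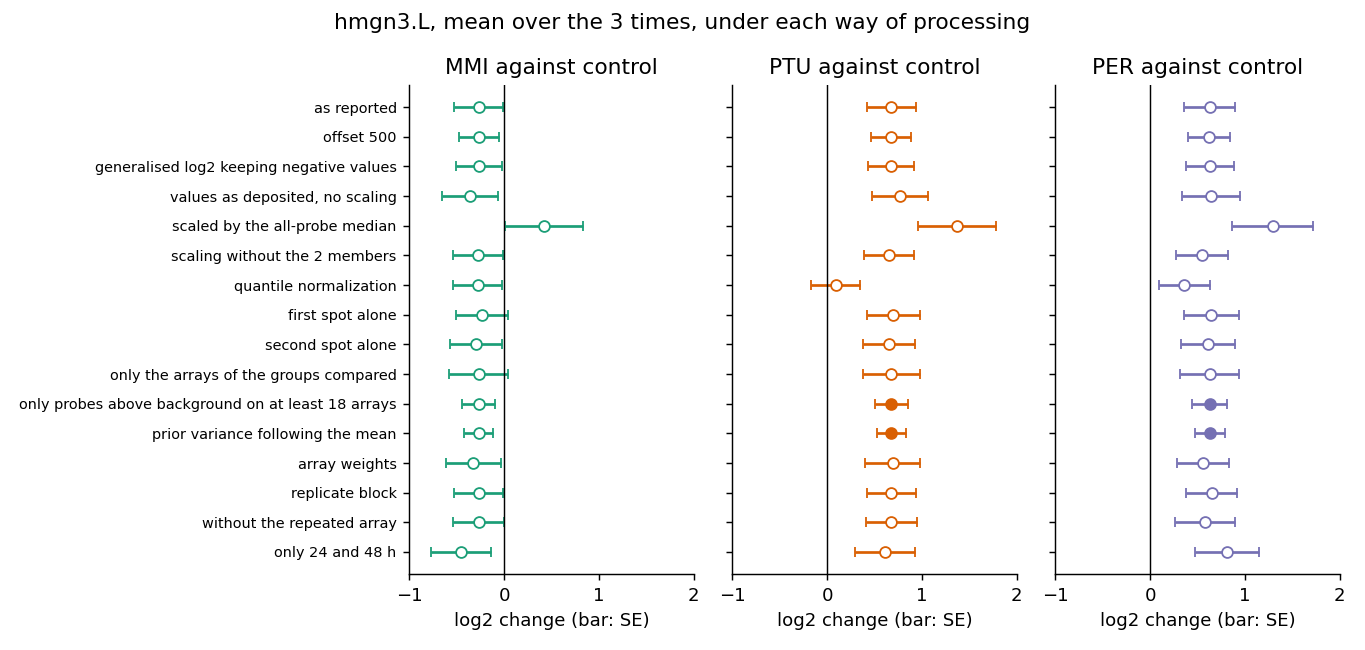
Log2 change of hmgn3.L against control (x axis, mean over the 3 times) for each compound under each processing setting (y axis), with the SE as bars. Filled symbols have an adjusted p under 0.05 in limma: PTU and PER are filled with bright probes only and with a prior that follows the mean. The filled PER fits count both copies of the repeated array. Under quantile normalisation the PTU change is near 0 and the PER change is 0.36. At 24 h alone (not drawn) the PTU change under that setting was a fall, at -0.40.

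The scaling also shifts the general level. Bright probes had a median log2 change of 0.23 for MMI, 0.038 for PTU and 0.16 for PER. Relative to those medians, hmgn3.L differed by -0.50, 0.64 and 0.46. Scaling by the median of all probes turned the MMI change to 0.42 but also moved the bright probes, so the change relative to them was -0.48, with 0.65 for PTU and 0.50 for PER. Under quantile normalisation the relative changes were -0.71, -0.22 and -0.20. The PTU change at 24 h was then a fall, at -0.40, and the part of the high rank in these values was not tested.

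The compounds were also compared with each other, with contrasts added after seeing the data and each compound at its own concentration. PTU and MMI are both thionamides, and hmgn3.L was 1.93-fold higher with PTU than with MMI (log2 difference 0.95, SE 0.26, interval 0.41 to 1.48, adjusted p = 0.221 in limma). With PER it was 1.86-fold higher than with MMI (log2 difference 0.89, SE 0.27, interval 0.34 to 1.45, adjusted p = 0.436). Neither passed, and no probe was called in either contrast (0%). The concentrations differ, so these are contrasts of exposures and not of compounds at a matched dose.

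Over time, hmgn3.L showed no difference that passed the test in any treatment. In controls the log2 change from 24 to 96 h was -0.022 (adjusted p = 0.988, 5.39% of probes called). With PTU it was 0.48 (adjusted p = 0.833, 1.82% called) and from 48 to 96 h with PER it was -0.41 (adjusted p = 1, 0% called). With MMI it was 0.72 (adjusted p = 0.607, 0.226% called), and the 24 and 96 h arrays did not overlap, as for 13.1% of probes in that direction. That MMI change depended on the scaling, being 0.24 as deposited, where the arrays of both times overlapped, and 0.0040 with the all-probe median. The effect of each compound at 96 h minus that at 24 h was 0.74 for MMI, 0.51 for PTU and -0.62 for PER, with adjusted p of 0.641, 0.826 and 0.875, where 2.94%, 0.457% and 0.227% of probes were called.

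Ordered by group mean, hmgn3.L was highest in PER at 24 h (71335 ± 1923, SD, n = 2) and lowest in MMI at 24 h (25629 ± 5596, SD, n = 3), a ratio of 2.78. Between these lay PTU at 48 h, PTU at 96 h, PER at 48 h, PTU at 24 h, PER at 96 h, MMI at 96 h, controls at 24, 96 and 48 h, and MMI at 48 h. All 11 pairs of neighbours in this order had overlapping arrays, with gaps of at most 0.813 of the larger SD. Variation over the 12 groups gave an adjusted p of 0.319 in limma (unadjusted p = 0.0454), where 0.691% of probes were called.

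The probe for mbd3.S was dimmer. It was above background on 33 of the 34 arrays with a value, at 0.186 to 31.7 background SDs with a median of 13.8. On the 33 arrays with both spots positive, the brighter spot exceeded the dimmer by a median of 1.13 times and at most 2.10 times. On control 96 h replicate 1 the spots had opposite signs. The first spot was the brighter on 32 of 34 arrays, against 17 of 35 for hmgn3.L. Both spots of MMI 96 h replicate 3 were empty, so that group had 2 values for this gene and the fit left out that array.

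In controls mbd3.S measured 4843, 3749 and 8143 at 24 h. At 48 h the values were 6906, 6316 and 8678. At 96 h they were 234, 7766 and 6215. The first of the 96 h values comes from the control array that stood apart, and it is the only mbd3.S value not above background. On that array gap43.S, a growth-cone protein, also measured 1086 against 12639 to 20735 on the other controls, while hmgn3.L at 35117 was within the control range of 26132 to 46243.

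MMI gave the highest group means of mbd3.S at 48 and 96 h, while at 24 h the PER mean was slightly higher (8395 against 8212). That PER mean is of 2 arrays, 10943 from the repeated array and 5847, and the latter lay below every MMI value of 24 h. At 24 h the MMI values were 8185, 8365 and 8085, close together and overlapping the top control. At 48 h they were 10344, 10106 and 12948, all above the controls. At 96 h they were 10930 and 10267, above the controls after scaling. As deposited the first was 6852, below control 96 h replicates 2 and 3 at 7945 and 7729.5. Upward separation of scaled values was seen for 7.88% of probes at 48 h and 10.8% at 96 h. On the scaled values, 5 of the 8 MMI arrays lay above the highest of all controls and 7 above the highest control of their time.

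PTU and PER values of mbd3.S lay largely among the controls. With PTU they were 5494, 6421 and 7667 at 24 h, 5044, 6975 and 7581 at 48 h, and 9792, 7131 and 6294 at 96 h. With PER they were 10943 and 5847 at 24 h, 7613, 8025 and 10943 at 48 h, and 5215, 8397 and 6536 at 96 h. Both of the highest PER values are the repeated array. Every one of these 6 groups overlapped the controls of its time.

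**Figure D3:**
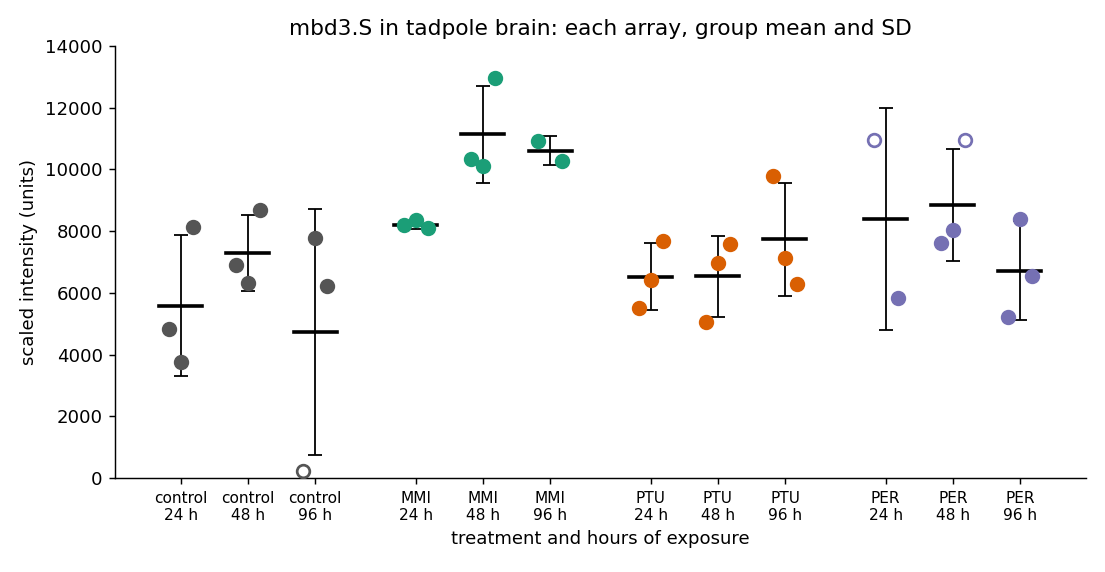
Scaled intensity of mbd3.S (y axis, linear units) on each array, by treatment and hours of exposure (x axis), with group means as bars and SDs as whiskers. Open circles mark the repeated PER array and control 96 h replicate 1, which lies at 234. MMI at 48 and 96 h lies wholly above the controls of the same time.

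Over all times mbd3.S stood at 5872 ± 2630 (SD, n = 9) in controls, or 6577 ± 1673 (SD, n = 8) without the low array. It stood at 9904 ± 1661 (SD, n = 8) with MMI, 6933 ± 1391 (SD, n = 9) with PTU and 7940 ± 2142 (SD, n = 8) with PER. With the repeated array counted once the PER mean was 7511 ± 1907 (SD, n = 7). The MMI mean lay above the highest control array, at 8678. The PTU and PER means did not.

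No difference in mbd3.S passed the test. Against control over the 3 times it was 2.17-fold higher with MMI (log2 change 1.12, SE 0.45, interval 0.19 to 2.04, adjusted p = 0.360 in limma), with 8 of 8 arrays above the control mean of their time. The log2 change was 0.59 with PTU (SE 0.43, interval -0.30 to 1.48, adjusted p = 0.550) and 0.77 with PER (SE 0.45, interval -0.16 to 1.69, adjusted p = 0.458). Without control 96 h replicate 1 these became 0.61 for MMI, 0.083 for PTU and 0.26 for PER. On the linear scale, exact permutation within times gave a difference of 4109 units for MMI (p = 0.0015, adjusted p = 0.147), 1061 for PTU (adjusted p = 0.842) and 2118 for PER (adjusted p = 0.543). Without that control array the MMI difference was 3358 units (exact permutation, adjusted p = 0.136), with 310 for PTU and 1367 for PER, and the limma adjusted p for MMI was 0.334. Without either copy of the repeated array the PER difference of mbd3.S was 922 units and its log2 change 0.56.

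The size at 96 h moved with the control arrays. At 24 and 48 h the MMI changes of mbd3.S were 0.63 and 0.61 on the log2 scale. At 96 h the change was 2.12 (adjusted p = 0.220), with 1.64 for PTU and 1.44 for PER. In the fits that left out control 96 h replicate 2 or 3, the MMI change was 2.95 (adjusted p = 0.0392) or 2.79 (adjusted p = 0.046) and passed. Without replicate 1 the 96 h changes were 0.60, 0.13 and -0.075. The MMI change was then near the same size at each time.

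Across times, mbd3.S showed a control change from 24 to 96 h of -1.12 (adjusted p = 0.475), which became 0.39 without the low array. The effect at 96 h minus that at 24 h was 1.49 for MMI, 1.36 for PTU and 0.85 for PER (adjusted p = 0.594, 0.657 and 0.916). Without control 96 h replicate 1 these became -0.024, -0.16 and -0.67, so each changed sign, and without the repeated array the PER value was 1.30. Against MMI, the mbd3.S change was -0.53 with PTU (adjusted p = 0.751) and -0.35 with PER (adjusted p = 0.899). MMI at 48 h was the highest group (11133 ± 1577, SD, n = 3), followed by MMI at 96 h, PER at 48 and 24 h and MMI at 24 h. Both of these PER means include the repeated array, at 10943. The other values were 7613 and 8025 for PER at 48 h and 5847 for PER at 24 h. Control 96 h was the lowest (4739 ± 3977, SD, n = 3, or 6991 ± 1097, SD, n = 2, without the low array). All 11 neighbouring pairs overlapped, with gaps of at most 0.957 of the larger SD. The pair of MMI at 96 h (10267 and 10930) and PER at 48 h overlapped only through the repeated array. Variation over the 12 groups gave an adjusted p of 0.700.

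**Figure D4:**
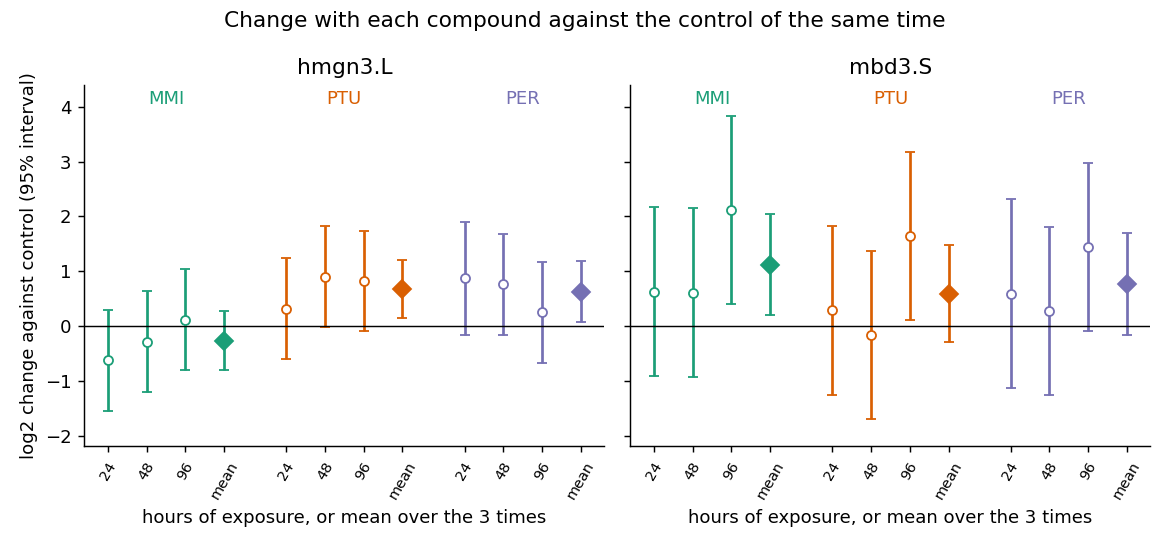
Log2 change against control (y axis, with 95% intervals from limma) of hmgn3.L and mbd3.S for each compound at 24, 48 and 96 h and as the mean over times. For hmgn3.L the PTU and PER means are above 0 and the MMI mean is -0.27, and for mbd3.S the MMI mean is highest at 1.12. Single-time intervals of mbd3.S are wide at every time, and widest for MMI at 96 h and PER at 24 h, with 2 values each.

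Across the 12 comparisons with control, 3 means over times and 9 single times, limma called 0 for either gene. At an unadjusted p under 0.05 there were 2 for hmgn3.L, the PTU and PER means, and 3 for mbd3.S, the MMI mean and MMI and PTU at 96 h. Over all probes that level was reached by 51 of 442 for the MMI mean, 69 of 438 for the PTU mean and 58 of 441 for the PER mean. It was reached by 61 of 443 for MMI at 96 h and 50 of 440 for PTU at 96 h. Of the single times the share of all probes called was 0.676%, 0% and 4.74% for MMI, 1.58%, 0% and 1.14% for PTU, and 0%, 0% and 1.36% for PER at 24, 48 and 96 h. In scaled values, the groups of a time did not overlap in 5 of 9 comparisons for hmgn3.L and in 2 of 9 for mbd3.S. As deposited, hmgn3.L with PTU at 96 h and mbd3.S with MMI at 96 h did overlap the controls. For hmgn3.L, MMI at 24 h was separate downward, as were 11.3% of all probes. Its other separations were upward, shared by 6.79% to 11.9% of probes, and those of mbd3.S by 7.88% and 10.8%. For the counts of arrays above the highest control, or beyond the control mean of their time, no share over all probes was taken. The compounds share their control arrays, so the comparisons with control are not independent of each other.

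The labels describe a screen on fold changes of at least 2 between a treatment and its control. As ratios of mean deposited intensities, hmgn3.L passed that size with PTU at 48 h, at 2.56, and came near it with PER at 24 h, at 1.96. The gene mbd3.S passed it with MMI at 48 h, at 2.11. After scaling these ratios were 1.87, 1.82 and 1.53, and the only ratio above 2 was mbd3.S with MMI at 96 h, at 2.24, which rests on the low control array.

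Among other chromatin genes of a chosen list, 7 had a probe, and none was above background on more than 8 of 35 arrays. The corepressors sin3a.S and ctbp2l.S, the deacetylase hdac9.S, the coactivator ncoa2.S, the NuRD subunit mta2.L, the maintenance DNA methyltransferase dnmt1.L and the nucleosome-bound exchange factor rcc1.L made up this group. The list does not hold every chromatin gene on the array. The probe named HMG-1, for example, was not on it. With MMI 0 of 7 were called by limma, with 1 at an unadjusted p under 0.05, and exact permutation called no probe at all. With PTU 1 of 7 was lower and with PER 1 of 7 was lower. Over all probes 1.13%, 4.34% and 1.59% were called with MMI, PTU and PER, and 51 of 442 reached that unadjusted level with MMI. The called gene was ctbp2l.S, a corepressor of the C-terminal binding protein family, in both cases. It measured 1688 ± 1388 (SD, n = 9) in controls, with 4 of 9 arrays above background, and -246 ± 309 (SD, n = 9) with PTU and -15 ± 301 (SD, n = 8) with PER, with none. It was also the gene at an unadjusted p under 0.05 with MMI, where it measured 167 ± 448 (SD, n = 9), with 1 of 9 arrays above background. Its adjusted p in limma was 0.00251 for PTU, 0.0128 for PER and 0.0911 for MMI, lower in all of them, and the last did not pass. No fold is given, since fewer than 5 of the 9 control arrays were above background. The higher background SD of control arrays moves with this difference, and its part was not tested.

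The other chromatin genes did not pass. Averaged over the 3 times, those at an unadjusted p under 0.05 were dnmt1.L with PTU (adjusted p = 0.270) and mta2.L with PER (adjusted p = 0.246), both higher. No size is given, since dnmt1.L was above background on 0 of 9 controls and mta2.L on 1 of 9. With PTU 4 of 9 arrays were above background for dnmt1.L, and with PER 4 of 8 for mta2.L. The lower background SD of PTU and PER arrays moves with these differences, and its part was not tested. The deacetylase and corepressor partners hdac9.S and sin3a.S each exceeded background on few arrays, with 0 of 9 controls for either. For MMI the median log2 change of the 7 was -0.05, beside -0.08 over all probes tested. It was -0.13 beside -0.18 for PTU and -0.19 beside -0.17 for PER.

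Among 53 named probes above background on at least 18 arrays, those most like hmgn3.L over the 12 group means were tubb4b.L, a beta tubulin, with r = 0.63, gapdh.S, a glycolytic enzyme, with r = 0.59, and pabpc1.S, a poly(A)-binding protein, with r = 0.54. The group means of tubb4b.L were 8330 to 9287 in controls, 11580 to 15322 with MMI, 15174 to 25209 with PTU and 13227 to 20112 with PER, and all 3 of its MMI means lay above its 3 control means, whereas 2 of the 3 MMI means of hmgn3.L lay below all its control means. Of these, tubb4b.L was also a scaling probe, and all share arrays and scaling with hmgn3.L. Those most like mbd3.S were lmo3.S, a LIM-domain protein, with r = 0.93, the nuclear factor xnf7.L with r = 0.90 and the proteasome subunit psma2.L with r = 0.89. Without control 96 h replicate 1 these became 0.57, 0.26 and 0.66, so the likeness rests largely on that array. On it lmo3.S measured -421 and psma2.L -340, each below all other controls, and xnf7.L measured 3582, within its other controls. Ranked anew without control 96 h replicate 1, the probes most like mbd3.S were coro1c.L (r = 0.70), psma2.L (r = 0.66) and fgf20.L (r = 0.62). The 2 chromatin genes themselves correlated at 0.003 over the group means, or -0.22 without that array.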

How the data were processed

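Per the labels' protocols, brain RNA was amplified, radiolabelled and hybridised to 1-channel arrays. The authors deposited 1 table of linear intensity values for 898 spots. How the background was taken off, whether arrays were scaled and why 677 cells are empty is not given in the sources used here. Of the cells of an array, 17.3% to 44.5% held 0 or less, as after background subtraction. The number of arrays limits the precision.

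The paired spots were averaged and each array was scaled by its median over the 18 probes above background on every array, since these medians varied between arrays (SD 0.353 in log2 units). Negative values were set to 0, an offset of 67.7 was added and log2 was taken. Fold changes are on that scale. All 35 arrays and 12 groups entered a linear model in limma 3.58.1 (R 4.3.3, lmFit and eBayes), with Benjamini-Hochberg adjustment over all probes and calls at 0.05. All adjusted p-values not named as permutation are from limma. Exact permutation tests were two-sided, over arrays within times, with 8000 arrangements where all 3 arrays of each group had a value and 4000 otherwise (PER, and MMI for mbd3.S). Their smallest possible p was 0.00025 and 0.0005. The script was tested on simulated data. Plots used matplotlib 3.10.9 and Python 3.11.15.

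Genes were named by rule: the members, any homeolog probe, every other chromatin gene of the list with a probe, and the 3 probes most like each member. For mbd3.S the likeness ranking was also taken without control 96 h replicate 1, and HMG-1 was named as outside the list. Markers of brain and other tissues were named from chosen lists. Members and lists were chosen with earlier results of these data known. The comparisons with MMI, the prior that follows the mean, scaling without the members and likeness without 1 array were added after seeing the data. Replicates with the same number were checked for pairing. Symbols come from RefSeq's gene table, and no coordinates are given because the files name no build.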

Additional observations from a re-analysis of the deposited data

How the results depend on the processing

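Of 48 tested results, run under up to 15 alternatives, 593 values kept direction and side of the threshold, 25 reversed and 18 crossed it. Leave-one-out fits were not counted, and the cause was not tested. For hmgn3.L, calls appeared with bright probes only, where fewer probes were tested and the variance prior was refitted: PTU 0.68 (adjusted p = 0.00473), PER 0.63 (0.0142), PTU against MMI 0.95 (0.00101) and PER against MMI 0.89 (0.00227). With a prior following the mean they were 0.68 (0.00363), 0.63 (0.0134), 0.95 (0.000146) and 0.89 (0.000849). The PER values of both settings count both copies of the repeated array. PTU against MMI also passed with array weights, at 1.02 (0.0401), and with an offset of 500, at 0.94 (0.0296). For mbd3.S, MMI at 96 h passed with bright probes only, at 2.12 (0.0387). In the exact permutation of hmgn3.L, PER was 22258 (0.0549) on the first spot, 21219 (0.0577) on the second and 21747 (0.0882) as deposited. PER was 18637 (0.110) with members left out of scaling and 28356 (0.201) at 24 and 48 h only (fewer arrays). Without either copy of the repeated array it was 19415 and the call was lost. PTU was 24301 (0.0311) on the first spot. Reversals under the all-probe median were hmgn3.L with MMI at 24 h 0.82, at 48 h 0.12, mean 0.42 (permutation 10532), MMI effect over time -0.49, PTU effect -0.29, PER 96 against 48 h 0.15 and control 96 against 24 h 0.50. For mbd3.S they were MMI effect -0.17, MMI 96 against 24 h -0.68, PER 96 against 48 h 0.15, PTU 48 h 0.56 and PTU 96 against 24 h -0.042. Under quantile normalisation hmgn3.L with PTU at 24 h was -0.40, mbd3.S in MMI over time -0.34 and mbd3.S with PTU at 48 h 0.59. As deposited, hmgn3.L with MMI was 0.088 at 48 h, -0.61 at 96 h and -0.040 as effect over time, and mbd3.S with PTU at 48 h was 0.29. The hmgn3.L control change over time was 0.28 as deposited, 0.014 with array weights, 0.083 on the second spot and 0.10 with members left out of scaling, where MMI at 96 h was -0.056. Leaving out 1 array at a time, hmgn3.L gave -0.12 to 0.29 for MMI at 96 h, -0.12 to 0.10 for controls over time, 19700 to 24021 for the PER permutation (call lost in 16 of 35) and 20166 to 26328 for PTU. For mbd3.S it gave 0.60 to 2.95 for MMI at 96 h, -0.28 to 0.0074 for PTU at 48 h, -0.075 to 2.27 for PER at 96 h, -1.96 to 0.39 for controls over time, and -0.024 to 2.33, -0.16 to 2.19 and -0.67 to 1.68 for the MMI, PTU and PER effects over time, the sign of the last 5 turning without control 96 h replicate 1. Probes called ranged from 0 to 10 for MMI (5 as reported), 4 to 29 for PTU (19) and 0 to 21 for PER (7). Replicate numbers did not pair samples (median correlation 0.018 for equal numbers, -0.007 for different), and with a replicate block hmgn3.L was 0.68 with PTU (0.199) and 0.65 with PER (0.296), mbd3.S was 1.17 with MMI (0.300), and no call changed.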
